A study of Mus musculus with 24 samples.

Results

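Cells carrying a Rag2-GFP reporter were sorted from the CD135-negative part of the lineage-negative, Sca-1-positive, Kit-positive (LSK) bone marrow of control mice, and the GFP-positive cells were compared with the GFP-negative cells. The comparison rests on 6 of the 24 libraries of the series, chosen by their labels: 3 GFP-negative and 3 GFP-positive Ctrl HSC libraries, with all genes of the table described. The series crossed 3 factors: control or Tal1-deleted mice, CD135-negative LSK cells (called HSC by the submitters) or CD135-positive LSK cells (called LMPP), and GFP-negative or GFP-positive cells, with 3 libraries in each of 8 groups. Control mice (Ctrl) had the genotype given as wild type (Tal1 F/F) Rag2GFP, so they bear floxed Tal1 alleles without Cre, and the deleted mice (KO) are VaviCre Tal1F/F Rag2GFP. All groups thus share the floxed alleles and the reporter. The Vav promoter drives Cre in blood cells at large, so deletion in KO mice is not limited to the sorted populations. The labels used here give neither the age of the mice nor whether a library came from 1 animal or a pool, so p-values measure the spread between libraries, which may in part be technical.

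Haematopoietic stem cells sit at the top of the blood cell hierarchy and give rise to erythroid, megakaryocytic, myeloid and lymphoid cells. RAG2 forms, with RAG1, the recombinase that assembles antigen receptor genes, and a reporter driven by Rag2 regulatory sequence marks early lymphoid progenitors. CD135 is FLT3, a cytokine receptor that appears as multipotent cells lose self-renewal and gain lymphoid potential. TAL1 is a basic helix-loop-helix factor that, with GATA factors, LMO2 and LDB1, drives erythroid and megakaryocytic genes.

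The labels were first set against the genes they imply. Rag2 (chr2:101624718-101632529, plus strand, GRCm38) stood at 48.4, 29.99 and 4.99 normalised counts in GFP-negative replicates 1, 2 and 3 and at 620, 344 and 405 in GFP-positive replicates 1, 2 and 3. The groups did not overlap, with a log2 change of 4.14 (SE 0.52, n = 3 and 3, limma adjusted p = 5.51e-05). Since the gate selects cells by Rag2 reporter activity, this is a check of the sort. An exact two-sided permutation test of the same log2 values gave p = 0.1, the smallest that 3 libraries against 3 allow. Kit was measured at 5460, 5850 and 6504 normalised counts in GFP-negative and 3858, 6626 and 4398 in GFP-positive libraries, and the groups overlapped. Ly6a, which encodes Sca-1, was low and uneven, from 118 to 242 in GFP-negative and from 31.3 to 421 in GFP-positive libraries. Cd34 and Ptprc, which encodes the pan-leukocyte antigen CD45, were detected in all 6 libraries.

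Flt3, the gene of the antigen used for the negative gate, was read at 597, 759 and 1033 normalised counts in GFP-negative and at 1414, 1790 and 3256 in GFP-positive HSC libraries. Every GFP-positive value lay above every GFP-negative one, but the log2 change of 1.37 (SE 0.40) did not pass, with a limma adjusted p of 0.0616. It passed without GFP-positive replicate 1, at 1.63 with an adjusted p of 0.0316. The CD135-positive GFP-negative libraries averaged 4586 ± 196 (SD, n = 3), above all 6 CD135-negative ones.

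Library totals ran from 6934530 to 8704420 normalised counts in the GFP-negative HSC libraries and from 8408390 to 11969100 in the GFP-positive ones, while read depth is unknown because the values are normalised. Between 15226 and 15798 genes exceeded 1 normalised count in GFP-negative libraries, against 13583, 11982 and 14455 in GFP-positive replicates 1, 2 and 3. GFP-positive replicate 2 thus had the highest total and the fewest detected genes of the 6. Values under 1 are read here as not detected and not as levels. Among mature-cell markers, Cd3e was at 41.7 in GFP-positive replicate 1 and under 1 in the other 5 libraries, Cd79a was under 1 in all 6, and the NK marker Klrb1c was under 1 in all 3 GFP-positive libraries. Tal1 measured in KO libraries ranged from 0.499 to 518 normalised counts, against 326 to 2109 over all Ctrl libraries, and the labels do not say which exons the floxed alleles remove.

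**Figure D1:**
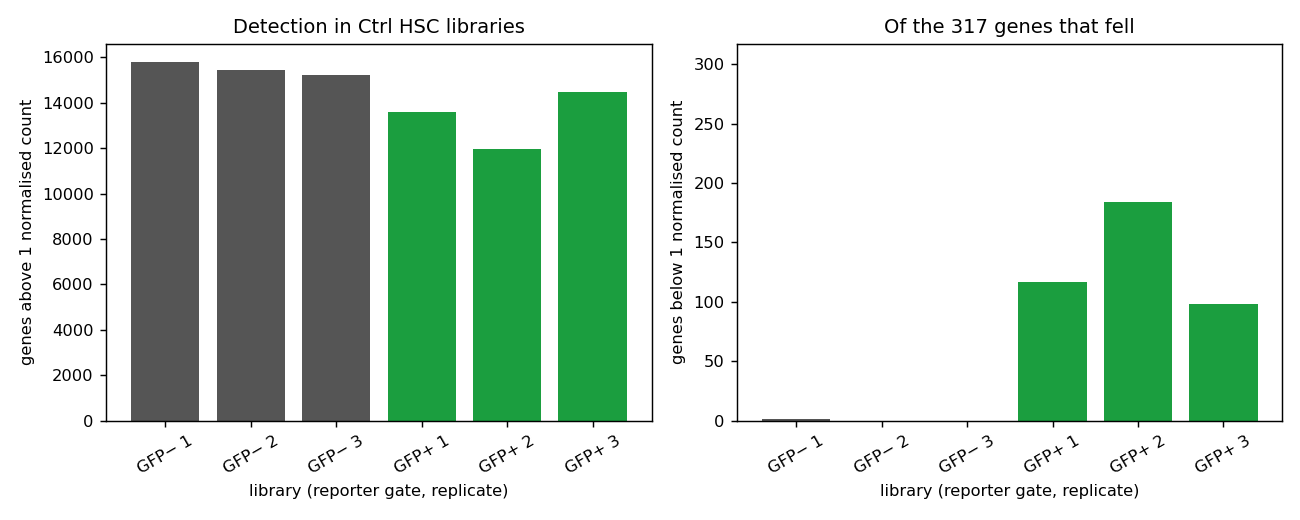
Detection by library in Ctrl HSC. Bars on the left count genes above 1 normalised count in each library, and bars on the right count, of the 317 genes that fell, those below 1. GFP-positive replicate 2 has 11982 detected genes and 184 undetected fallen genes, against at most 1 undetected fallen gene in a GFP-negative library. Genes called as fallen had to be high in GFP-negative libraries, so the bars on the right are a description.

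In GFP-positive Ctrl HSC, the genes that rose included Rag2, Dntt, Il7r, Notch1, Tcf7 and Mpo, and those that fell included Gata1, Klf1, Pf4, Vwf and Hlf. They are members of the recombination, lymphoid, T-lineage and granulocyte-monocyte lists and of the erythroid, megakaryocyte and stem cell lists below, in which many members did not pass. Of 16215 genes tested, 441 passed at an adjusted p under 0.05 (2.72%, limma with Benjamini-Hochberg adjustment): 124 rose (0.765%) and 317 fell (1.95%). The rises had a median log2 change of 2.23 and the falls one of −3.09, beside −0.24 for all genes tested. The GFP-positive libraries lay on one side of the GFP-negative ones for 120 of the 124 rises and 311 of the 317 falls, against 17.8% of all genes tested (5.66% with all GFP-positive libraries above and 12.1% with all below). The genes were called on these same libraries, so this separation is a description and not a further test. Of the 441 genes, 29 rises and 77 falls passed in each of the 6 fits that left out one of these libraries. The filter on low values kept 8 of the rises and 6 of the falls only through the group in which they were high, so these had to differ and their size is a description. Bcl11b, Tcrg-C2, Tcrg-C4 and Il2rb are among the 8.

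Changes below are on the log2(value + 4.1) scale, which understates the change of low genes. The call rests on the spread shared across all 24 libraries: with only these 6 libraries no gene passed, though 1343 had an unadjusted p under 0.05 in that limma fit, and 55 genes passed when GFP-positive replicate 2 was also left out of it. Shifting every library to the same median changed the split to 162 rises and 178 falls, and scaling to library totals changed it to 75 rises and 426 falls. The median change of all genes was 0.14 and −0.46 under these scalings. In bulk samples, fewer cells of a type and less RNA per cell cannot be told apart.

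**Figure D2:**
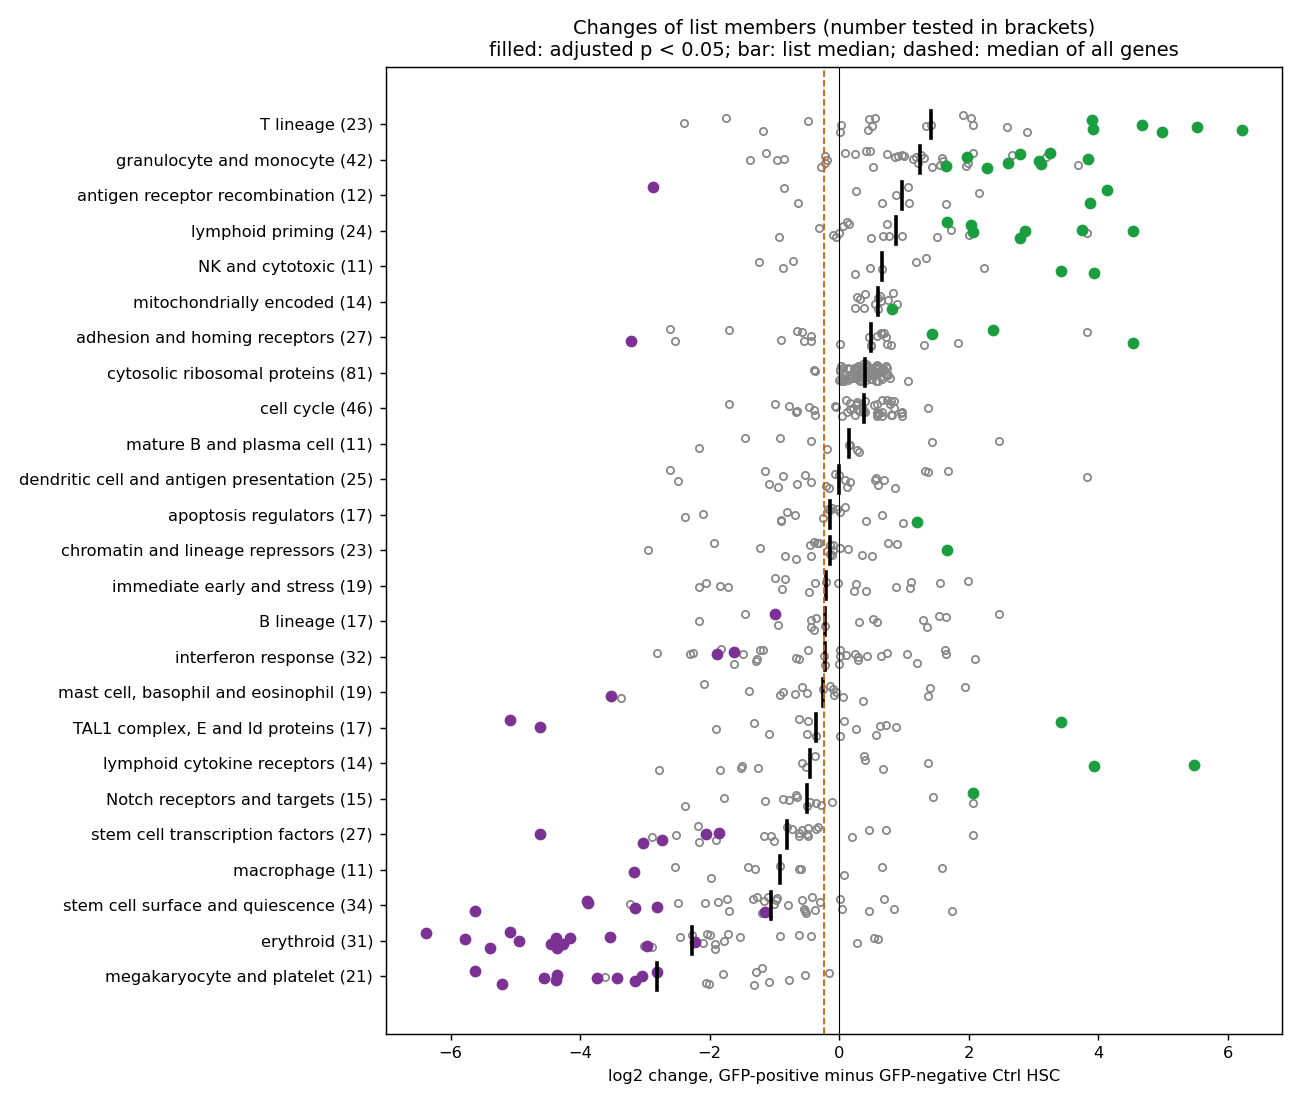
Log2 changes (GFP-positive minus GFP-negative Ctrl HSC) of the tested members of the gene lists, ordered by their median. Each circle is a gene, filled where the limma adjusted p was under 0.05. Black bars are list medians, and the dashed line is the median of all genes, −0.24. The T-lineage list lies at the top, with a median of 1.41, and the megakaryocyte list at the bottom, with −2.82.

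Among 12 genes of antigen receptor recombination, Rag2 and Dntt rose and Xrcc5 fell, with a list median of 0.97. The rise of Rag2 is the check of the sort given above and adds nothing about the list. Dntt (chr19:41029275-41059525, plus strand), the terminal transferase that adds untemplated bases at receptor junctions, measured 136, 262 and 241 normalised counts in GFP-negative and 1619, 4692 and 3740 in GFP-positive libraries. The lowest GFP-positive value was above every GFP-negative value, and the log2 change was 3.87 (SE 0.44, adjusted p = 2.17e-05). Rag1, the partner of RAG2 in the recombinase, had 12.5, 2.23 and 2.99 in GFP-negative and 13.4, 20.5 and 49.6 in GFP-positive libraries. Its log2 change of 1.65 (SE 0.70) did not pass, with an adjusted p of 0.214. Xrcc5, the Ku80 subunit that binds broken DNA ends in every cell type, fell by 2.88 on the log2 scale, with an adjusted p of 0.0132. It was not called without GFP-positive replicate 2, where its value was lowest at 4.34, or without GFP-negative replicates 1 or 2 (adjusted p of 0.0564 to 0.0688).

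Of 14 lymphoid cytokine receptor genes tested, 2 rose (14.3%, against 0.765% of all genes tested) and none fell, with a median of −0.45. Il7r (chr15:9505788-9530176, minus strand), the interleukin-7 receptor chain on which mouse lymphoid progenitors depend, had at most 4.04 normalised counts in GFP-negative libraries and 41.0, 1146 and 236 in GFP-positive replicates 1, 2 and 3. All GFP-positive libraries were above the GFP-negative ones, but they differed widely among themselves. The log2 change was 5.48 (SE 0.85, adjusted p = 0.000522). Il2rb, a chain of the interleukin-2 and interleukin-15 receptors, had a fitted change of 3.93, was kept by the filter only through GFP-positive libraries, and was not called without GFP-positive replicate 2 (adjusted p = 0.0613) or GFP-negative replicate 3 (0.0513).

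Lymphoid priming genes, those that multipotent progenitors switch on before commitment, had 7 rises and no fall among 24 tested, with a median of 0.87. The rises are 29.2% of the list, against 0.765% of all genes tested. Ighm (chr12:113418558-113422730, minus strand), the mu heavy chain locus that gives germline transcripts before rearrangement, measured 653, 401 and 484 in GFP-negative and 2021, 7030 and 3510 in GFP-positive libraries. No value overlapped, and the log2 change was 2.86 (SE 0.34, adjusted p = 2.66e-05). Notch1, the receptor that instructs T-cell fate in the thymus, had 270, 502 and 464 against 1651, 1998 and 1445. This was a narrow spread in the GFP-positive group, with a log2 change of 2.07 (SE 0.28, adjusted p = 0.000137).

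Satb1, a chromatin organiser active in lymphoid progenitors, measured 621, 1107 and 1085 against 2104, 5013 and 2250 and rose by 1.66 (SE 0.28, adjusted p = 0.00142). Ccr7, a chemokine receptor used in homing, had 471, 285 and 41.6 in GFP-positive libraries, while the GFP-negative ones held 25.0 in replicate 3 and under 1 in the others. Its log2 change of 4.54 passed with an adjusted p of 0.00971 but not without GFP-negative replicate 1 (adjusted p = 0.064) or replicate 2 (0.0564). Cd52 (2.04), Cnn3 (3.74) and Irf8 (2.79), an interferon regulatory factor shared by lymphoid and myeloid programmes, also rose. Cnn3 and Irf8 were not called without GFP-positive replicate 2, at adjusted p values of 0.0573 and 0.059. Without GFP-negative replicate 3, Cd52, Cnn3 and Irf8 had adjusted p values of 0.06, 0.0893 and 0.153, and without GFP-negative replicate 2 Cd52 had 0.0848.

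**Figure D3:**
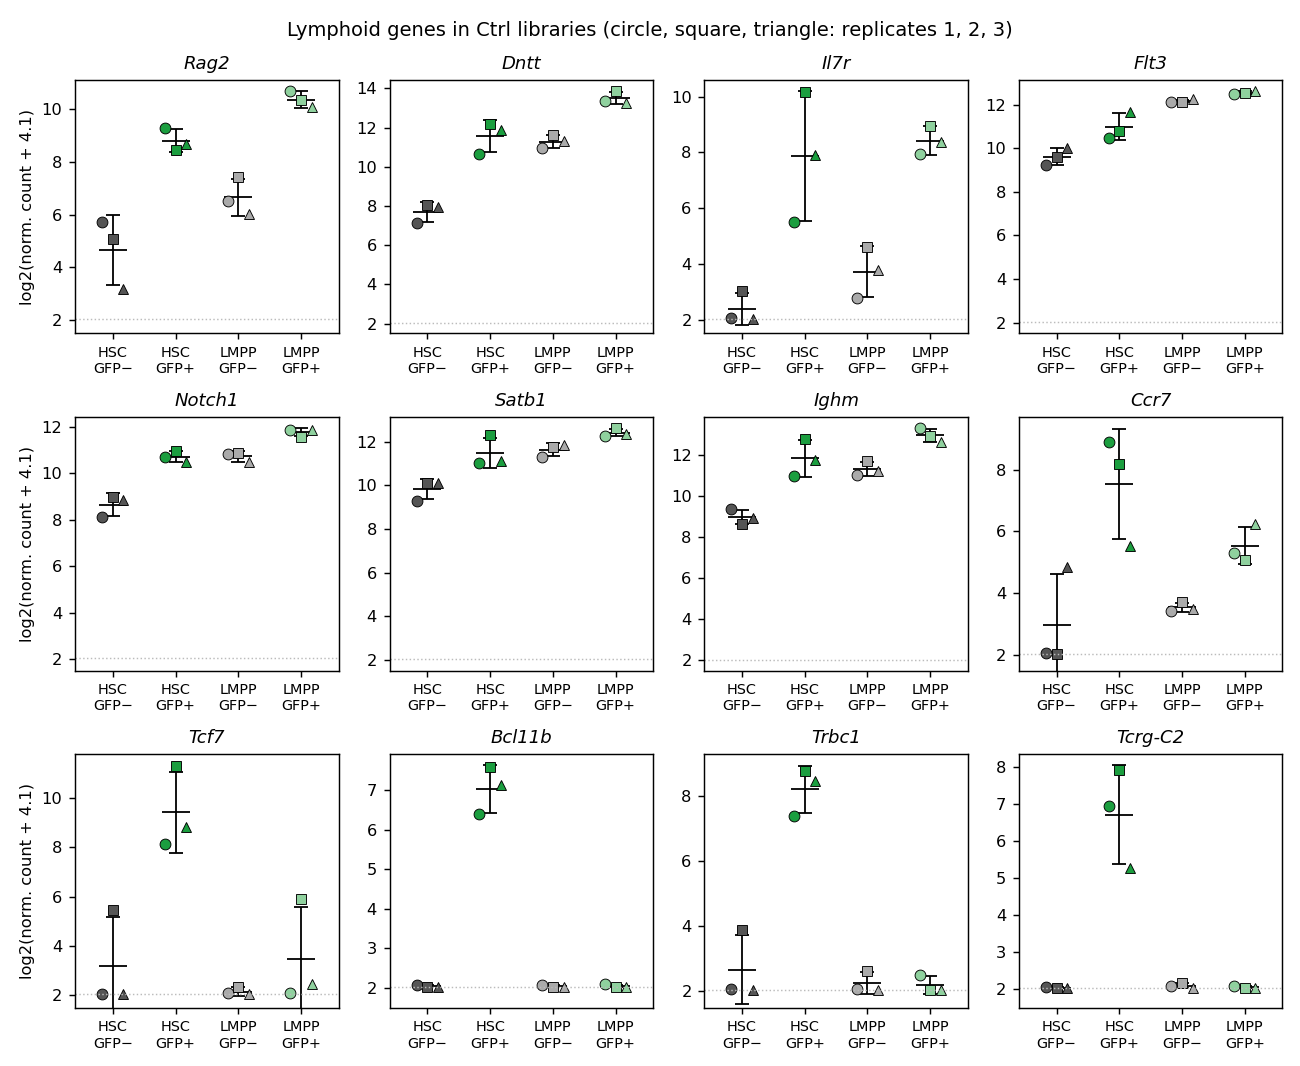
Lymphoid and T-lineage genes in the 12 Ctrl libraries, on a log2(normalised count + 4.1) axis. Points are libraries (circle, square and triangle for replicates 1, 2 and 3), horizontal bars are means and whiskers SDs, and the dotted line marks a value of 0. Rag2, Dntt, Notch1 and Ighm lie higher in GFP-positive cells of both gates, whereas Bcl11b and Tcrg-C2 stand clearly above the line only in the 3 GFP-positive HSC libraries of the 12 shown.

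Of 23 T-lineage genes tested, 6 rose and none fell, with a median of 1.41. The filter kept 3 of the 6, Bcl11b, Tcrg-C2 and Tcrg-C4, only through the GFP-positive Ctrl HSC libraries, so the count supports nothing about the list. Without GFP-positive replicate 2 the median was 0.59. Tcf7, Trbc1, Tcrg-C2 and Tcrg-C4 passed there, as did Cd6 and Themis, which had not passed with all libraries. Tcrg-C1 did not pass there, and Bcl11b fell below the filter and could not be tested. Tcf7 (chr11:52252371-52283014, minus strand), which encodes TCF-1, an early Notch-induced factor of T cells and innate lymphoid cells, had 276, 2462 and 444 normalised counts in GFP-positive libraries. Among the GFP-negative ones replicate 2 held 40.2 and the others under 1, so the groups did not overlap, and the log2 change was 6.21 (SE 1.04, adjusted p = 0.00111). Bcl11b (chr12:107910403-108003602, minus strand), a zinc-finger factor of T-cell commitment, was at 79.3, 186 and 136 in GFP-positive libraries. In GFP-negative replicates 2 and 3 it was listed at 0 and in replicate 1 it was under 1, so the fitted change of 4.98 depends on the pseudocount. It was below the filter in every other library of the study, and these levels are given as a description.

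Trbc1, a constant segment of the T-cell receptor beta chain, had 162, 423 and 346 in GFP-positive libraries against 10.7 in GFP-negative replicate 2 and under 1 in the others. Tcrg-C2 and Tcrg-C4, constant segments of the gamma chain, had fitted changes of 4.68 and 3.92, given as a description for the same reason. Tcrg-C1, whose groups overlapped, rose by 3.90 with an adjusted p of 0.0402. It was not called without GFP-positive replicate 2 (0.218) or GFP-negative replicates 1 (0.18) or 3 (0.187). Trbc1 and the Tcrg constant segments have near-identical copies, so how the counting split reads between copies is uncertain. Trbc2, the other beta constant segment, did not pass, at a log2 change of 1.91 (SE 1.09, limma adjusted p = 0.365). Germline transcripts of unrearranged loci and transcripts of rearranged ones both count for these segments.

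Of the mature T-cell markers, Cd3e was left out by the filter and not tested, and Cd4 did not pass. Cd4 was at 71.6, 57.0 and 2.99 in GFP-negative and 51.9, 0.0309 and 8.27 in GFP-positive libraries, with an adjusted p of 0.57. The 2 mature T-cell markers in the table, Cd3e and Cd4, summed to between 2.99 and 71.7 in GFP-negative and between 0.0485 and 93.6 in GFP-positive libraries. Cd28, a co-stimulatory receptor of T cells, and Themis, a T-cell receptor signalling protein, did not pass either (adjusted p = 0.107 and 0.0534), with overlapping groups. Cd28 nevertheless reached 301 in GFP-positive replicate 2 and Themis 101 in GFP-positive replicate 1. When GFP-positive replicate 2 was left out, Themis was called.

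Of 11 NK and cytotoxic genes, Il2rb and Id2 rose, with a median of 0.66 that became −0.08 without GFP-positive replicate 2. Id2, an inhibitor of E proteins needed by innate lymphoid cells, had 11.3, 1.62 and 0.997 against 40.7, 139 and 82.4, and its log2 change of 3.42 (adjusted p = 0.0295) was not called without that library (adjusted p = 0.112) or without GFP-negative replicates 2 (0.0996) or 3 (0.123). B-lineage genes showed no rise among 17 tested, where 0.765% of all genes rose, so the absence is near that share. Syk, a kinase of antigen receptor signalling, was the single member to fall, from 1298, 1399 and 1095 to 730, 521 and 646, with an adjusted p of 0.0342. It was not called without GFP-positive replicate 2 (0.118) or without any one GFP-negative library (0.0598 to 0.115). Besides Notch1, no gene rose among 15 Notch receptors and targets, and Hes1, a Notch target, did not pass at 2.06 (adjusted p = 0.0511).

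Granulocyte and monocyte genes had 9 rises (21.4%, against 0.765% of all genes tested) and no fall among 42 tested, with a median of 1.24. Mpo (chr11:87793581-87804413, plus strand), the peroxidase of primary granules, measured 14803, 24928 and 8143 in GFP-negative and 106766, 51068 and 62618 in GFP-positive libraries. The groups did not overlap, and the log2 change was 2.28 (SE 0.49, adjusted p = 0.0107). Without GFP-negative replicate 3, the lowest of the 6, the change was 1.86 with an adjusted p of 0.0915.

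Ms4a3, a membrane protein of granulocyte-monocyte progenitors, had 53.4, 48.7 and 21.0 against 423, 613 and 828. It rose by 3.83 (SE 0.64, adjusted p = 0.00111). Cd33, a sialic acid-binding receptor of myeloid cells, rose by 3.11 (adjusted p = 0.00889, and 0.0668 without GFP-negative replicate 1), and Gsr, glutathione reductase, by 1.65 (adjusted p = 0.00896). Tyrobp, an adaptor of activating receptors (1.97), and Fcgr3, an Fc receptor (3.08), rose as well, but were not called without GFP-positive replicate 2, at adjusted p values of 0.148 and 0.0718. Nor were they called without GFP-negative replicates 1 or 3 (0.093 to 0.164), and Tyrobp also not without GFP-negative replicate 2 (0.0646). Without GFP-positive replicate 2 the list still had 9 rises. Of these, 5 were shared with the full fit, and Ctsg, Ly6c2, Fcnb and Plac8 were new. The late granule genes S100a8, S100a9, Ngp and Camp, which mark neutrophils, did not pass. Their sum was 604 to 1665 in GFP-negative and 1199 to 3847 in GFP-positive libraries, and its part in the rise of Mpo and Ms4a3 was not tested.

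Other large rises were those of Olr1, a scavenger receptor for oxidised lipoprotein, at 5.07, 4.03 and 0.997 against 666, 598 and 297 (log2 change 6.10, SE 1.01, adjusted p = 0.00111), and of Clec4a2, a C-type lectin receptor with close paralogues nearby (4.50, adjusted p = 0.00143). Kmo, kynurenine 3-monooxygenase, rose by 4.31 with an adjusted p of 0.00704, and of 0.0532 without GFP-positive replicate 2. Mefv, which encodes pyrin, rose by 3.90 (adjusted p = 0.000162).

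Erythroid genes had the most falls of any list by number, 13 of 31 tested (41.9%, against 1.95% of all genes) with no rise, and a median of −2.28. By share the megakaryocyte list had more (47.6%). In 20 of the 31 every GFP-positive library was below every GFP-negative one, against 12.1% of all genes. As for every list here, the members were chosen with earlier results of these data known, so these counts are a description. Gata1 (chrX:7959260-7978071, minus strand), the master regulator of red cells and megakaryocytes, measured 188, 106 and 138 in GFP-negative libraries and under 1 in all 3 GFP-positive ones, with a fitted log2 change of −5.08 (SE 0.79, adjusted p = 0.000522). Its cofactor gene Zfpm1, which encodes FOG1, had 613, 483 and 470 against 11.7, 7.58 and 81.6, a change of −4.38 (SE 0.57, adjusted p = 9.4e-05). For both regulators the GFP-positive and GFP-negative libraries did not overlap.

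Klf1, the erythroid Krüppel-like factor, had 220, 83.2 and 102 in GFP-negative libraries and 6.83 as its highest GFP-positive value (−4.46, adjusted p = 0.00241). Car2 (chr3:14886273-14900770, plus strand), a carbonic anhydrase, was still well detected on both sides, at 4092, 2976 and 2086 against 212, 405 and 602. Its log2 change was −2.97 (SE 0.41, adjusted p = 0.000158), so genes well above the detection floor fell as well. Its neighbour Car1 had 1199, 627 and 2025 against 147 in GFP-positive replicate 1 and under 1 in replicates 2 and 3 (−6.37, SE 1.19, adjusted p = 0.00307).

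Aqp1, a water channel of the red cell membrane (−5.79, adjusted p = 0.000112), and Hemgn, a nuclear protein of erythroid differentiation (−4.16, adjusted p = 0.000481), fell likewise. Ermap, a red cell membrane adhesion protein, fell by 5.39 with an adjusted p of 0.00907, and was not called without GFP-positive replicate 2 (0.0558) or GFP-negative replicate 3 (0.05). Without that GFP-positive library 8 erythroid genes fell. The globin gene Hba-a1, which marks later erythroid cells, did not pass (adjusted p = 0.192). Tfrc, the transferrin receptor that dividing cells also use, had a log2 change of 0.54.

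Megakaryocyte and platelet genes had 10 falls (47.6%, against 1.95% of all genes tested) and no rise among 21 tested, with a median of −2.82. Vwf (chr6:125546774-125686679, plus strand), which encodes von Willebrand factor and marks platelet-biased stem cells, measured 250, 277 and 378 in GFP-negative libraries. The GFP-positive libraries held 5.20, 0.0316 and 1.87, and the log2 change was −5.62 (SE 0.78, adjusted p = 0.000158). Pf4, platelet factor 4 of the alpha granule, had 220, 115 and 199 against no more than 1.87, with a log2 change of −5.21 (SE 0.72, adjusted p = 0.000158). No GFP-positive library held more than 5.20 normalised counts of either gene.

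Itga2b, the CD41 integrin chain, was at 644, 749 and 773 against 55.7, 81.9 and 99.2, a change of −3.16 (SE 0.76, adjusted p = 0.0237). Although its groups were far apart, its adjusted p was 0.0538 without GFP-positive replicate 2 and between 0.0702 and 0.0882 without any one GFP-negative library. Gp5 (−4.56) and Gp1ba (−4.35), subunits of the platelet receptor for von Willebrand factor, fell too. Without GFP-positive replicate 2, 6 of the 10 megakaryocyte genes fell.

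**Figure D4:**
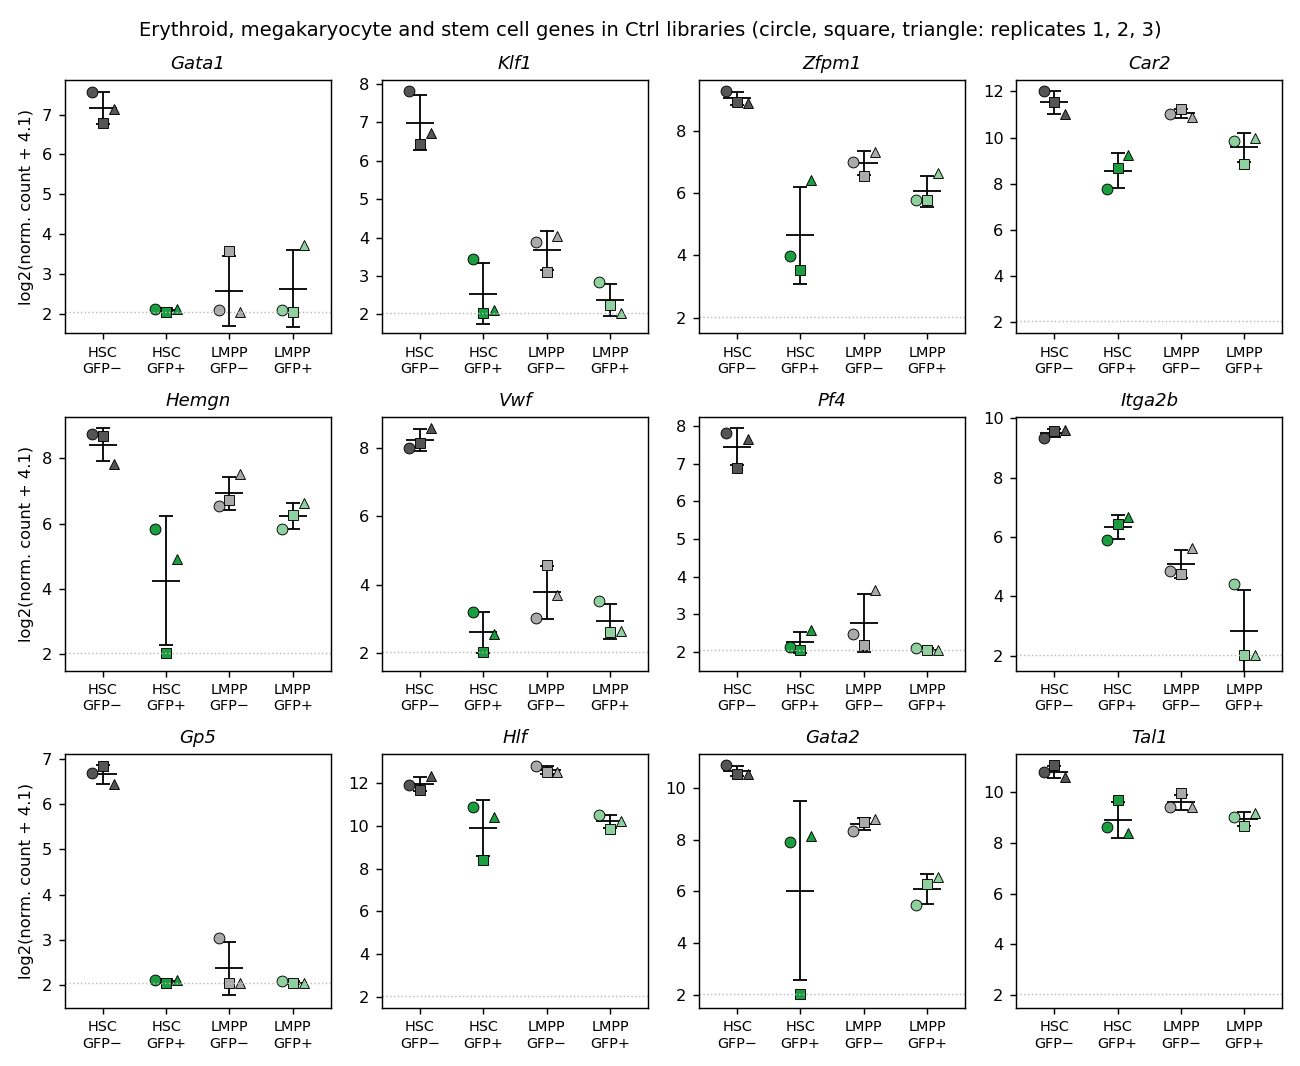
Erythroid, megakaryocyte and stem cell genes in the 12 Ctrl libraries, on a log2(normalised count + 4.1) axis with points, bars, whiskers and dotted line as in the plot of lymphoid genes. GFP-positive HSC libraries lie below all GFP-negative HSC libraries for each of the 12 genes, and Gata2 falls to the dotted line in GFP-positive replicate 2 but stands at 238 and 279 in replicates 1 and 3.

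Promoter windows were read for members of lists that moved together. Windows of 300 bases around gene starts, 250 before and 50 after, came from RefSeq (GRCm38.p6), and were searched on both strands for AGATAA, a form of the GATA motif, and for CAGATG and CAGCTG, E-boxes of the kind that TAL1 binds with E proteins. Different motifs share no bases in the windows printed. The 4 windows below are shown because their genes fell and they hold a motif, which is in capitals; the minus-strand form of AGATAA reads TTATCT. Hemgn has its window at chr4:46404134-46404433 (minus strand), Pf4 at chr5:90772185-90772484 (plus strand), Gp5 at chr16:30310732-30311031 (minus strand) and Treml1, a platelet granule receptor that fell by 3.04, at chr17:48359666-48359965 (plus strand).
Hemgn: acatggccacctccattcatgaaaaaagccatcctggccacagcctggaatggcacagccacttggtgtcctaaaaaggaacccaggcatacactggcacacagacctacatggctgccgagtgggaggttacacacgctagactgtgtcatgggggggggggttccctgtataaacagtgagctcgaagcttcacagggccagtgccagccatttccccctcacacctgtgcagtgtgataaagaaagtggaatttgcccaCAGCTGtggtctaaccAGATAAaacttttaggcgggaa
Pf4: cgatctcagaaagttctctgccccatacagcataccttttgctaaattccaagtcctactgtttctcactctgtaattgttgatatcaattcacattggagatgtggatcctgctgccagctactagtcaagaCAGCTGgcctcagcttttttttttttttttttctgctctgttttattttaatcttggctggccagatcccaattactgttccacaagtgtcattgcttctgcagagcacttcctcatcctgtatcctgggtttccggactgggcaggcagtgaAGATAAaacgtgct
Gp5: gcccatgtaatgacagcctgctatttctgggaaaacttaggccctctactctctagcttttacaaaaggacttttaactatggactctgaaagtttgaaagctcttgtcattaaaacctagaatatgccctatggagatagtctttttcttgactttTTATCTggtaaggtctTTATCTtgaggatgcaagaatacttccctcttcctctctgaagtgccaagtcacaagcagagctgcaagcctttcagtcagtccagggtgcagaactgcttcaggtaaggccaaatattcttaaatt
Treml1: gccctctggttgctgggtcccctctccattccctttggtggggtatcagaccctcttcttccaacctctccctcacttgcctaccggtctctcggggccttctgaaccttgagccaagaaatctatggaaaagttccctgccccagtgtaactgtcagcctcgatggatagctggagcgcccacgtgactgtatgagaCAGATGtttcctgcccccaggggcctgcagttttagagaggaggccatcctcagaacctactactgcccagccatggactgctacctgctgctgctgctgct

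Hemgn and Pf4 each hold 1 AGATAA and 1 CAGCTG, Gp5 holds 2 AGATAA on the opposite strand, and Treml1 holds 1 CAGATG. The windows of Zfpm1, Aqp1, Notch1 and Satb1 held none of the 3 motifs. Ighm, Ccr7, Car2 and Vwf had no entry. Over the 9 erythroid genes that fell and had a window, 3 held AGATAA, 2 CAGATG and 2 CAGCTG, and over the 7 megakaryocyte genes 2 held each. None of the 4 lymphoid priming genes with a window held any, and of the 2 T-lineage genes with one, 1 held CAGCTG. Of the 6 granulocyte-monocyte genes with one, 1 held CAGATG. Among all 32851 windows, 11.2% held AGATAA, 17.2% CAGATG and 16.3% CAGCTG. A match describes letters in the window and is not a binding site.

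Stem cell transcription factors had 5 falls (18.5%, against 1.95% of all genes tested) and no rise among 27 tested, with a median of −0.81. Hlf (chr11:90336536-90390895, minus strand), a bZIP factor that marks long-term stem cells, was at 3848, 3217 and 5134 in GFP-negative and 1878, 338 and 1355 in GFP-positive libraries. The highest GFP-positive value lay below the lowest GFP-negative one, and the log2 change was −2.06 (SE 0.40, adjusted p = 0.00442).

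Gata2, a GATA factor needed by stem cells, measured 1883, 1486 and 1494 against 238, 0.0324 and 279. GFP-positive replicate 2 was far below the other two, and the log2 change moved from −4.62 (adjusted p = 0.0263) to −2.62 (adjusted p = 0.18) without it. Mecom, a zinc-finger oncoprotein gene active in stem cells, had 446, 372 and 617 against 344, 3.27 and 133, and moved from −2.74 (adjusted p = 0.0495) to −1.11 (adjusted p = 0.232) without it. Neither gene was called without any one GFP-negative library, at 0.0659 to 0.0916 for Gata2 and 0.092 to 0.169 for Mecom. Hoxb5 was at 28.6 to 32.9 in GFP-negative libraries and under 1 in all GFP-positive ones, with an adjusted p of 0.0492 that did not pass in any of the 6 fits leaving out a library (0.0524 to 0.138). Meis1 and Erg lay below in every GFP-positive library but did not pass, with adjusted p values of 0.118 and 0.0786.

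Among 34 stem cell surface and quiescence genes, 6 fell (17.6%, against 1.95% of all genes tested) and none rose, with a median of −1.05. Besides Vwf and Itga2b these included Tek (the TIE2 receptor, −3.88), Fgd5 (a marker of long-term stem cells, −3.89) and Txnip (a regulator of quiescence, −1.15). Without GFP-positive replicate 2 the adjusted p values of these last 3 were 0.0736, 0.0746 and 0.144, and 2 genes of the list fell. Without GFP-negative replicate 1 Fgd5 (0.0904) and Txnip (0.114) were not called, nor were Tek (0.05) and Txnip (0.1) without GFP-negative replicate 3. Slamf1, the CD150 antigen, had 130, 105 and 136 against 36.1, 47.4 and 22.6, with an adjusted p of 0.115. Procr, the EPCR antigen, had a log2 change of −3.23 that did not pass (adjusted p = 0.129), with 148 in GFP-positive replicate 1 and under 1 in the other two.

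Tal1 itself (chr4:115056426-115071755, plus strand) measured 1746, 2109 and 1523 normalised counts in GFP-negative and 393, 815 and 326 in GFP-positive Ctrl HSC. The groups did not overlap, but the log2 change of −1.91 (SE 0.70) did not pass across all genes, with a limma adjusted p of 0.149. An exact two-sided permutation test on this gene alone gave p = 0.1. Of 17 genes of the TAL1 complex, E proteins and Id proteins, Gata1 and Gata2 fell and Id2 rose, with a median of −0.35 beside −0.24 for all genes tested. Lyl1, the closest relative of Tal1, had 853, 840 and 620 against 736, 1698 and 1597, and the groups overlapped.

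Adhesion and homing receptors had 3 rises (Ccr7, Cd69 and Pecam1) and 1 fall (S1pr1, the sphingosine phosphate receptor of lymphocyte egress) among 27. These shares are 11.1% and 3.7%, against 0.765% and 1.95% of all genes tested. Cd69, an activation antigen, had 10.03, 37.8 and 43.9 against 283, 123 and 105, with a log2 change of 2.38 (adjusted p = 0.019, 0.13 without GFP-negative replicate 1 and 0.0578 without GFP-positive replicate 1). Pecam1 (1.43) and S1pr1 (−3.21) were not called without GFP-positive replicate 2, at adjusted p values of 0.222 and 0.193, or without any one GFP-negative library (0.0781 to 0.148). Nor was Pecam1 called without GFP-positive replicate 1 (0.056), or S1pr1 without GFP-positive replicate 3 (0.0603). Of 32 interferon response genes 2 fell, the oligoadenylate synthetases Oas3 (−1.62, adjusted p = 0.012) and Oas1a (−1.89, adjusted p = 0.0465, 0.19 without GFP-positive replicate 2, 0.0541 without GFP-positive replicate 3, and 0.074 to 0.185 without a GFP-negative one). Oas3 had an adjusted p of 0.0863 without GFP-negative replicate 2. The 2 falls are 6.25% of the interferon list, against 1.95% of all genes tested.

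No gene passed among 46 cell cycle genes, 81 cytosolic ribosomal protein genes, 25 dendritic cell and antigen presentation genes, 19 immediate early and stress genes and 11 mature B and plasma cell genes. Over all genes tested only 2.72% passed, so short lists without a call are near that share. The cell cycle and ribosomal lists both had a median of 0.39, beside −0.24 for all genes. Scaled to library totals, both became 0.10 beside −0.46, and at the same median both became 0.77 beside 0.14. After quantile normalisation they were 0.17 and 0.10, beside −0.03. The groups separated with higher GFP-positive values for 11 of 46 cell cycle and 25 of 81 ribosomal genes, against 5.66% of all genes. In both lists 0 genes separated the other way. Top2a, a topoisomerase of dividing cells, had 3305, 4122 and 2299 against 4712, 5159 and 5056 (log2 change 0.66, adjusted p = 0.207). Mitochondrially encoded genes had 1 rise, mt-Co1, among 14, at 32852, 35795 and 31416 against 59618, 70068 and 48336. Its log2 change of 0.82 (adjusted p = 0.0478) was −0.094 after quantile normalisation and did not pass without GFP-positive replicates 1 (adjusted p = 0.0709) or 2 (0.22) or any one GFP-negative library (0.085 to 0.145).

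Many falls coincided with loss of detection. Of the 317 fallen genes, 117, 184 and 98 were below 1 normalised count in GFP-positive replicates 1, 2 and 3, and 62 were below 1 in all 3. In GFP-negative libraries at most 1 was, but genes called as fallen had to be high there, so this contrast is a description. Of the 124 rises, 19, 15 and 25 were below 1 in GFP-negative replicates 1, 2 and 3, and 3, 0 and 0 in the GFP-positive ones. Of all 17149 genes, 13583, 11982 and 14455 exceeded 1 in GFP-positive replicates 1, 2 and 3, and 15226 to 15798 did in GFP-negative libraries. GFP-positive replicate 2 was the lowest of its group in 267 of the 317 falls and the highest in 77 of the 124 rises. Without it 223 genes passed, 77 higher and 146 lower, and 166 of them were among the 441. Leaving out GFP-negative replicates 1, 2 and 3 gave 192, 240 and 174, and leaving out GFP-positive replicates 1 and 3 gave 781 and 1198.

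The same reporter gates were then compared in the other populations, which share no library with Ctrl HSC. The Ctrl LMPP libraries carry the same numbers in their descriptions as the Ctrl HSC ones, whereas the KO libraries carry others. Ctrl HSC and Ctrl LMPP may thus share mice or sort days, which the labels do not say. GFP-positive against GFP-negative cells gave 9 genes in Ctrl LMPP (0.0555% of those tested; 5 higher, 0.0308%, and 4 lower, 0.0247%). It gave 61 in KO HSC (0.376%; 25 higher, 0.154%, and 36 lower, 0.222%) and 187 in KO LMPP (1.15%; 95 higher, 0.586%, and 92 lower, 0.567%). Of the 124 genes that rose in Ctrl HSC, 103, 105 and 106 had a positive change in the LMPP of Ctrl mice, the HSC of KO mice and the LMPP of KO mice (83.1%, 84.7% and 85.5%), against 46.8%, 45.7% and 40.6% of all genes. Of the 317 falls, 248, 257 and 268 were negative there (78.2%, 81.1% and 84.5%), against 53.2%, 54.3% and 59.4% of all genes. None passed in the opposite direction.

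Fewer of these genes passed in their own right. In Ctrl LMPP the 3 rises that also passed were Cmah, Il7r and Rag2, making 2.42% of the Ctrl HSC rises and 60% of the 5 there, and the falls were Hlf and Ttc39b. Every population was gated on the Rag2 reporter, so the Rag2 rise is a check of the sort. That holds here and among the 26 rises of KO LMPP below. In KO HSC 16 rises and 19 falls passed as well, among them Dntt, Notch1, Mpo, Trbc1, Aqp1, Pf4, Gp5 and Klf1, and in KO LMPP 26 and 27 did, among them Dntt, Ighm, Il7r, Mpo, Car2 and Hlf. The median change of the Ctrl HSC rises was 0.47, 0.72 and 0.65 in the 3 populations, and that of the falls −0.60, −0.65 and −0.97. The genes were selected by their change in Ctrl HSC and not by their change in these 3 populations.

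**Figure D5:**
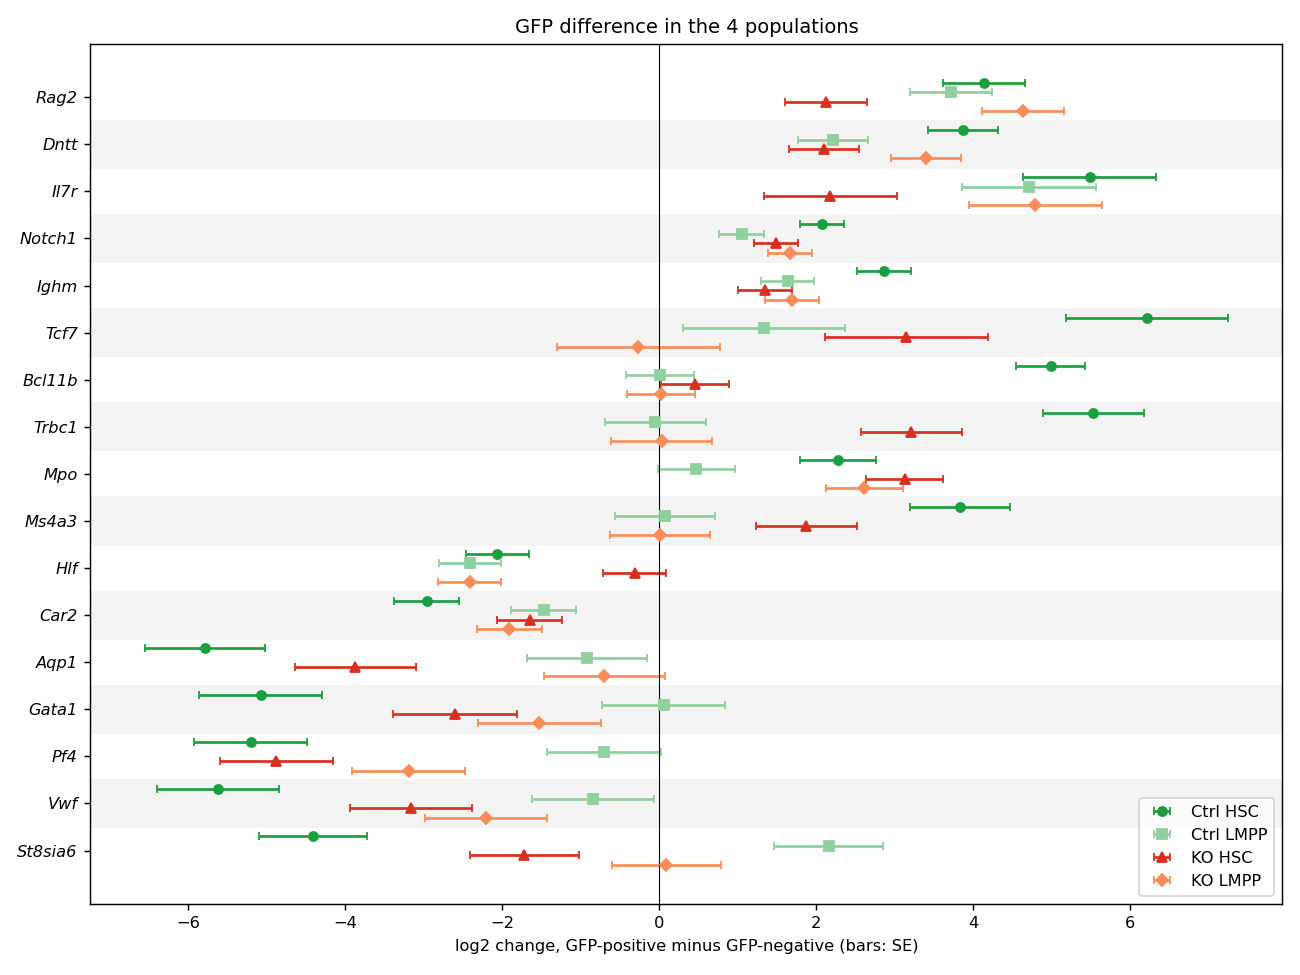
Log2 change (GFP-positive minus GFP-negative) of 17 genes in the HSC and LMPP gates of Ctrl and KO mice. Points are limma estimates and bars their SE, from 3 libraries per group. Rag2, Il7r, Dntt and Notch1 lie right of 0 in all 4 populations, and St8sia6 lies left of 0 in Ctrl HSC (−4.41) and right of it in Ctrl LMPP (2.16). For Rag2 this is a check of the sort.

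The GFP difference itself differed between Ctrl HSC and Ctrl LMPP for 4 genes (0.0247%), 3 higher in HSC and 1 lower, with 1030 at an unadjusted p under 0.05. The 3 were T-cell genes. Bcl11b had 79.3 to 186 normalised counts in GFP-positive Ctrl HSC and under 1 in all 6 Ctrl LMPP libraries. Its fitted difference of effects was 4.98 and that of Tcrg-C2 was 4.72, but the filter kept both genes only through the GFP-positive Ctrl HSC libraries, so both are given as a description. Trbc1, not kept in that way, differed by 5.58 (SE 0.91, adjusted p = 0.0102). Without GFP-positive replicate 2 of Ctrl HSC only St8sia6 passed: Trbc1 had an adjusted p of 0.0568, Tcrg-C2 one of 0.0848, and Bcl11b could not be tested. Nor did the Trbc1 difference pass without GFP-negative replicate 1 of Ctrl HSC (limma adjusted p = 0.0585).

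St8sia6, a sialyltransferase gene on chromosome 2 (chr2:13651021-13794064, minus strand), went the other way. It measured 116, 76.0 and 73.9 in GFP-negative and under 1 in all GFP-positive Ctrl HSC libraries, whereas Ctrl LMPP had 0.128, 6.75 and 0 in GFP-negative and 8.78, 25.1 and 40.3 in GFP-positive libraries. The difference of the effects was −6.57 (SE 0.98, adjusted p = 0.00372). This adjusted p is that of the difference and not of the rise in Ctrl LMPP alone. The Ctrl LMPP values were low, and the lowest GFP-positive one, 8.78, was close to the highest GFP-negative one, 6.75.

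Between Ctrl HSC and KO HSC, Bcl11b was the single gene to pass (0.00617%), with 1153 genes at an unadjusted p under 0.05. Since the filter kept it only through the group where it was high, its fitted difference of 4.52 is a description, and no other gene passed this comparison. In KO HSC it was at most 0.367 in GFP-negative and 1.38, 4.68 and under 1 in GFP-positive replicates 1, 2 and 3. Without GFP-positive replicate 2 of Ctrl HSC, or with the lowest pseudocount tried, no gene passed this comparison. Tcf7 and Trbc1 had smaller GFP effects in KO HSC, 3.15 and 3.21, but the differences from Ctrl HSC did not pass (adjusted p = 0.693 and 0.616). For Gata1 the difference was −2.47 with an adjusted p of 0.663, and for Tal1 it was −1.32 with 0.804.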

How the data were processed

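RNA was measured by sequencing in 24 libraries from sorted mouse bone marrow cells. Per the submitters' processing notes, Trimmomatic 0.33, HTSeq 0.6.1 and edgeR were used with mm10, and no aligner is named in those notes. The authors deposited 1 table of normalised counts for 17149 genes. This signal is already scaled between libraries by the authors, and only 0.594% of the nonzero entries were within 0.001 of an integer, so reads could not be recovered, depth is unknown and no count model was used. Names and positions of 16985 genes were taken from GENCODE M21 (GRCm38), and 164 identifiers were unmatched.

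Columns were assigned to samples by the names in the labels. Genes at or above 1 ppm of the library's total in at least 3 libraries were kept, which left out 934 and kept 16215. The values were tested as log2(value + 4.1), where 4.1 is 0.5 ppm, with limma 3.58.1 in R 4.3.3. Means of the 8 groups were fitted over all 24 libraries (16 residual and 9.53 prior degrees of freedom, intensity trend), the Benjamini-Hochberg adjustment was made over all genes of each of 6 comparisons, and a gene passed at an adjusted p under 0.05. The script was tested on simulated data. Single genes were also compared by an exact permutation test over 20 splits.

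Genes were named by a rule: the 15 largest rises and 15 largest falls among genes that passed with no overlap and a mean of at least 5 ppm, 8 fixed genes, up to 8 passing and 4 other members of each of 27 lists, and the genes leading each difference between populations. The globin gene Hba-a1, Tfrc, S100a8, S100a9, Ngp, Camp, Cd34, Cd3e, Cd79a, Cd6, Trbc2, Fcnb, Cmah and Ttc39b are named outside it, after their values were seen. Some genes of the lists are not reported here. The members and lists were chosen with earlier results of these data known. Replicate numbers were not treated as pairs in the main fit, because the labels do not state that they pair. Same-numbered libraries had correlations of deviations of 0.043, 0.02 and 0.037, all under 0.1. Libraries of different numbers had −0.034 to 0.003. Low correlations over all genes cannot show that libraries are unpaired. Alternatives covered pseudocount, filter, scaling, libraries fitted, weights, trend, a replicate block and each replicate left out.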

Additional observations from a re-analysis of the deposited data

Results flagged for a closer look

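A test of the difference between populations singled out 4 genes whose GFP effect was not the same in Ctrl HSC and Ctrl LMPP. The log2 change was larger in Ctrl HSC by 5.58 for Trbc1 (SE 0.91, limma adjusted p = 0.0102). It was larger by 4.98 for Bcl11b and by 4.72 for Tcrg-C2, genes that the filter on low values kept only through the GFP-positive Ctrl HSC libraries, so that these values are a description. For St8sia6 the difference was −6.57 (SE 0.98, adjusted p = 0.00372): 3 of 3 GFP-positive Ctrl HSC libraries lay below the GFP-negative ones, and 3 of 3 GFP-positive Ctrl LMPP libraries lay above theirs, at low values. The same test between Ctrl HSC and KO HSC singled out Bcl11b alone, by 4.52, and the same limit holds. Without GFP-positive replicate 2 of Ctrl HSC, St8sia6 alone passed between Ctrl HSC and Ctrl LMPP (adjusted p = 0.0160), and Trbc1 had an adjusted p of 0.0568. Trbc1 had a limma adjusted p of 0.0585 without GFP-negative replicate 1 of Ctrl HSC. Bcl11b was under 1 normalised count in every GFP-negative Ctrl HSC library and at 79.3, 186 and 136 in the GFP-positive ones.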

How the results depend on the processing

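The 441 genes became 491 and 393 with pseudocounts of 0.1 and 2 ppm, 425 without a filter, 419 with a stricter one, 501 (15% higher in GFP-positive cells, against 28.1%) scaled to totals, 340 (47.6%) at the same median, 357 (42%) after quantile normalisation and 442 without a trend. They were 0 with only the 6 libraries, 728 without the 2 libraries of low detection (342 shared), 150 with array weights (135 shared) and 174 to 1198 with 1 library left out. An alternative chosen after seeing the data, the 6 libraries less GFP-positive replicate 2, gave 55. The 4 genes that differed between Ctrl HSC and Ctrl LMPP were 15 with the larger pseudocount, 10 without the low-detection libraries, 11 without a trend and 1 to 20 with 1 library left out. The 1 gene that differed between Ctrl HSC and KO HSC became 2 with the larger pseudocount, 0 to 18 with 1 library left out, and 0 with the smaller pseudocount, the stricter filter, only the groups compared, array weights or the added alternative. Among the named genes followed through the alternatives, the sign changed for mt-Co1, to −0.094 after quantile normalisation, Kit, to 0.087 at the same median, and Ly6a, to 0.40 without GFP-positive replicate 1 (from −1.40 to 0.40 with 1 library left out). The same-median setting moves the median of all genes from −0.24 to 0.14, so other genes with small negative changes can change sign there. The cause for mt-Co1 and Ly6a was not tested. Bcl11b fell below the filter when a GFP-positive library was left out, so it could not be tested there. With no filter the 14 genes that the filter kept only through their high group all passed. They were picked from the genes called on these same libraries, so this is a description and not a further test. With the replicate number as a block 537 genes passed (427 shared), 6 and 1 differed between populations, and S1pr1 was the one named gene whose call was lost of 79. Every GFP-positive library correlated best with its own number, which is a hint from the data and not the design. The labels do not say that a number marks a shared mouse or day. With depth unknown, values near 0 limit precision: fallen genes read under 1 normalised count give no measure of how far they fell, and the fitted sizes depend on the pseudocount.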
